A study of Mus musculus with 30 samples.

Results

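Regulators of G protein signalling (RGS proteins) were represented on the array by 20 of the 12422 probe sets tested, which belong to 13 of 8251 named genes. They were taken as every probe set with a single array symbol of the form Rgs followed by a number. The genes are Rgs2, Rgs3, Rgs4, Rgs5, Rgs6, Rgs7, Rgs8, Rgs9, Rgs10, Rgs11, Rgs14, Rgs16 and Rgs19. Of these, 8 genes had 1 probe set and 5 had several. The members were followed across 3 laser-captured pools of mouse spinal cord motoneurons, which were the intermediolateral column (IML), the lateral motoneurons (LMN) and the medial motoneurons (MMN). The lateral and medial pools are called somatic here. All mice were adult, and all had undergone a sham operation, so every group shares that procedure. Each of 5 animals gave all 3 pools, with 400 captures per pool, and each pool gave 2 amplified targets on separate Affymetrix arrays, 30 arrays in total. The 2 arrays were averaged, which left 5 animals per pool.

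RGS proteins bind active Gα subunits and speed up the hydrolysis of GTP, which shortens the signal of a G protein-coupled receptor. The small R4 proteins act on Gi/o and, for several of them, on Gq. The R7 proteins work as obligate dimers with the β subunit Gnb5 and act on Gi/o in neurons, while the R12 and RZ proteins act mainly on Gi-class subunits. In motoneurons such receptors carry the input of monoamines, acetylcholine, opioids and other modulators. Of the measured genes 6 belong to R4, 4 to R7, 2 to R12 and 1 to RZ.

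Array medians lay between 131.69 and 145.908 intensity units, and levels below are log2 intensity, with the array median as the yardstick. By their mean over all samples, 10 probe sets lay above the array median and 10 below it. A probe set above the median was present for 9 genes, and all probe sets of Rgs4, Rgs5, Rgs6 and Rgs9 lay below it. No detection calls were used, so a low level cannot be set against background, and a level says nothing about one gene relative to another because probes differ in brightness. The samples are captures of tissue, so fewer cells of a type and less RNA per cell cannot be told apart. The summed intensity of the motoneuron markers varied widely, and by it the LMN sample of animal 2 and the IML sample of animal 4 stood apart within their pools. The 4 measured markers of 7 listed (Slc18a3, Isl1, Prph and Ret) summed to 766 to 3061 intensity units in IML, 584 to 4121 in LMN and 1067 to 3764 in MMN, with the 584 in LMN of animal 2 and the 3061 in IML of animal 4. The other 4 IML samples summed to 766 to 1089. These sums are on the linear scale and weigh Prph most, by 1 _f_at probe set of its 2. It averaged 10.15 in log2 intensity, beside 8.07 for Slc18a3, 6.65 for Ret and 5.64 for Isl1. Results that rest on either sample are given with and without it.

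**Figure D1:**
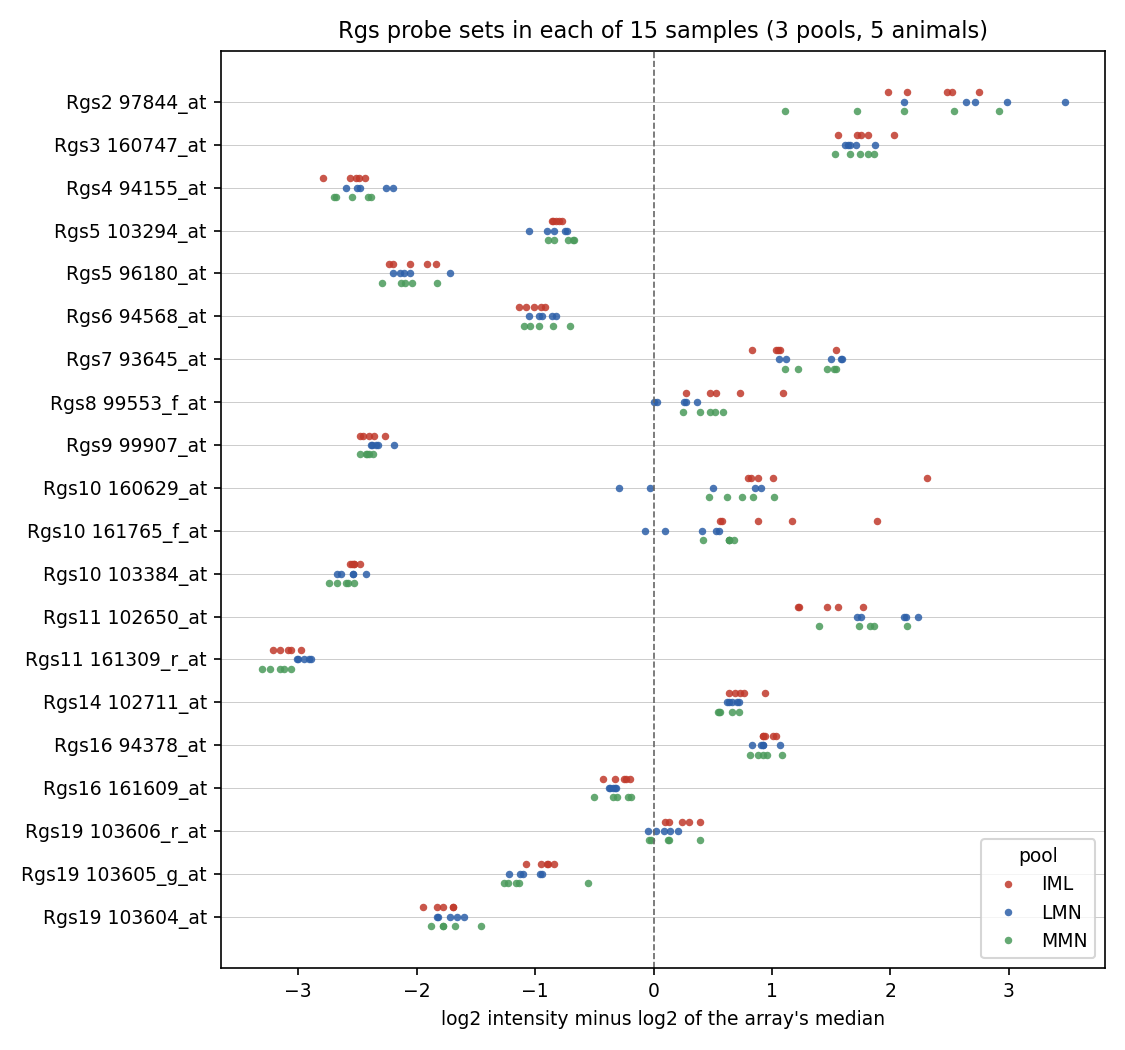
Level of each of 20 Rgs probe sets as log2 intensity minus log2 of the array's median (x axis), with 1 point for each of 5 animals in IML, LMN and MMN. Of the 20 rows, 10 centre to the right of the array median, and Rgs2, Rgs10 and Rgs11 show the visible separations or spread between pools.

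Most Rgs probe sets passed no test between the pools. Those that did set IML, the site of autonomic preganglionic neurons, apart from LMN or from both somatic pools averaged, and none passed against MMN alone. Between IML and both somatic pools, averaged with equal weight, 2 of 20 probe sets passed an adjusted p of 0.05 in the limma model, 1 lower (Rgs11) and 1 higher (Rgs10), which is 10% of members beside 5.52% of all probe sets. Between IML and LMN the count was 3 of 20 (15%, beside 8.98% of all probe sets), with Rgs11 lower and Rgs10 and Rgs8 higher. No member passed between IML and MMN, where 0.346% of all probe sets did and 6 members had an unadjusted p under 0.05. No member passed between LMN and MMN, where 0.0564% did and 4 members had an unadjusted p under 0.05. The shares of members called therefore lay near those of the whole array, in counts of 3 or fewer. Without the LMN sample of animal 2 the counts were again 2 and 3, beside 529 and 871 of all probe sets. Without the IML sample of animal 4 they were 2 and 4, beside 552 and 1008. In that last setting the 2 were Rgs11 and Rgs7, and Rgs10 no longer passed between IML and somatic samples. The median difference of the 20 members was 0.045 between IML and somatic samples, beside -0.008 over all probe sets, and 0.002 between LMN and MMN, beside 0.018. The IML samples enter all 3 IML comparisons, and those comparisons are not independent of each other.

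**Figure D2:**
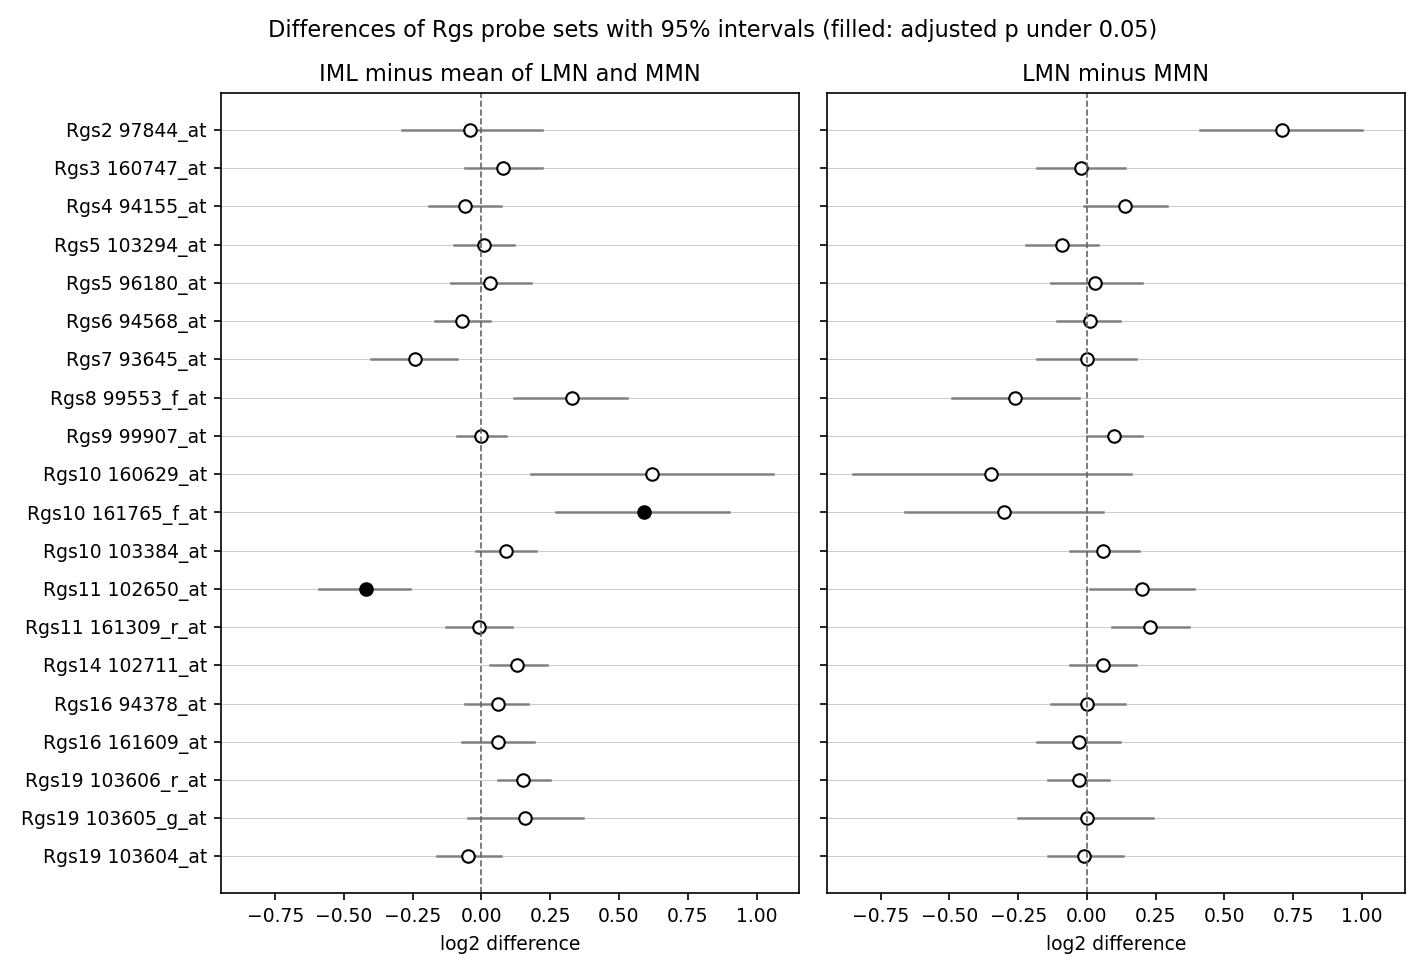
Log2 difference (x axis) of each Rgs probe set with its 95% interval, for IML minus the mean of LMN and MMN on the left and LMN minus MMN on the right. The filled points, with an adjusted p under 0.05, are Rgs11 at -0.42 and Rgs10 at 0.59 on the left, and there are none on the right, where Rgs2 lies farthest from 0 at 0.71.

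Among the R7 genes, Rgs11 was lower in IML. Rgs11 is known for its role with Rgs7 and Gnb5 in retinal ON bipolar cells. Its probe set 102650_at read 8.39, 8.66, 8.34, 8.85 and 8.55 in IML of animals 1 to 5. It read 8.89, 9.21, 9.17, 9.33 and 8.80 in LMN, and 8.97, 8.96, 8.77, 9.20 and 8.50 in MMN. In every animal IML was below LMN, and it was below MMN in 4 of 5, although the ranges of the pools overlap. The means were 8.56 ± 0.21 in IML, 9.08 ± 0.22 in LMN and 8.88 ± 0.26 in MMN (SD, n = 5 animals each), or 2.72, 3.97 and 3.46 times the array median. The difference between IML and somatic samples was -0.42 ± 0.08 (SE), or 0.745 of the somatic level, with a 95% interval of -0.59 to -0.26 and an adjusted p of 0.0118 in limma.

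Of the 4 measured motoneuron markers, Ret, Slc18a3 and Prph had lower means in IML, the direction of Rgs11, and Isl1 a higher one. Only 1 of the 4 passed between IML and somatic samples, beside 5.52% of all probe sets. Ret was lower in IML than in somatic samples (-0.34 ± 0.07, adjusted p 0.0206), while Slc18a3, which loads acetylcholine into vesicles, differed by -1.33 ± 0.36 (adjusted p 0.0579) and passed against LMN (-1.55 ± 0.42, adjusted p 0.0423). Isl1 (0.14 ± 0.09, adjusted p 0.404) and Prph (-0.60 ± 0.34, adjusted p 0.353) did not pass. The part of the motoneuron markers in the Rgs11 difference was not tested.

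Against LMN alone the Rgs11 difference was -0.52 ± 0.09 (adjusted p 0.0055), and against MMN alone it was -0.32 ± 0.09 (adjusted p 0.183). LMN exceeded MMN by 0.20 ± 0.09 (adjusted p 0.412). Without the LMN sample of animal 2 the IML to somatic difference stayed at -0.42 (adjusted p 0.0241), and without the IML sample of animal 4 it was -0.43 (adjusted p 0.0289). The call was lost without animal 3 (-0.37, adjusted p 0.0589) and without the animal as a block (adjusted p 0.141). It was also lost with technical set 1 alone (-0.39, adjusted p 0.0627) and with ordinary variance (-0.42, adjusted p 0.0515). The second Rgs11 probe set, 161309_r_at, averaged -3.07 log2 units relative to the array median and did not follow the first, with a difference of -0.01 ± 0.05 between IML and somatic samples and a correlation of 0.25 with it across 15 samples after each animal's mean was removed. That dim probe set read 4.25, 4.07, 4.15, 4.09 and 4.13 in LMN and 3.90, 3.95, 3.74, 3.94 and 4.04 in MMN. Every LMN value lay above every MMN value, but the difference of 0.23 ± 0.06 did not pass (adjusted p 0.204).

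Rgs7, the other R7 gene above the array median, also had lower values in IML and did not pass. It read 8.00, 8.17, 8.14, 8.62 and 8.15 in IML, 8.20, 8.20, 8.56, 8.68 and 8.67 in LMN, and 8.36, 8.21, 8.56, 8.60 and 8.57 in MMN. The IML value was below the mean of the somatic pair in all 5 animals, and the IML value of animal 4 lay within the somatic range. The difference was -0.24 ± 0.07 (adjusted p 0.0679), with the same size against LMN (-0.24 ± 0.08, adjusted p 0.0859) and against MMN (-0.24 ± 0.08, adjusted p 0.265). Without the IML sample of animal 4, a choice made after seeing the values, the difference was -0.30 and passed (adjusted p 0.0420). The paired arrays disagreed on its size, with -0.39 (adjusted p 0.0232) from technical set 1 alone and -0.10 (adjusted p 0.699) from set 2 alone.

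The remaining R7 genes and the shared partner passed no test. Rgs6, which acts on Gi/o in heart and brain, averaged 6.09 ± 0.11 in IML, 6.16 ± 0.12 in LMN and 6.16 ± 0.18 in MMN, a difference of -0.07 ± 0.05 (adjusted p 0.456). Rgs9, the regulator of photoreceptor transducin and of striatal dopamine signalling, averaged 4.72 ± 0.11 in IML, 4.77 ± 0.11 in LMN and 4.67 ± 0.07 in MMN, a difference of 0.00 ± 0.04 (adjusted p 0.991). Gnb5 averaged 9.49 ± 0.14 in IML, 9.49 ± 0.27 in LMN and 9.64 ± 0.26 in MMN, and its difference of -0.08 ± 0.07 did not pass (adjusted p 0.601).

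**Figure D3:**
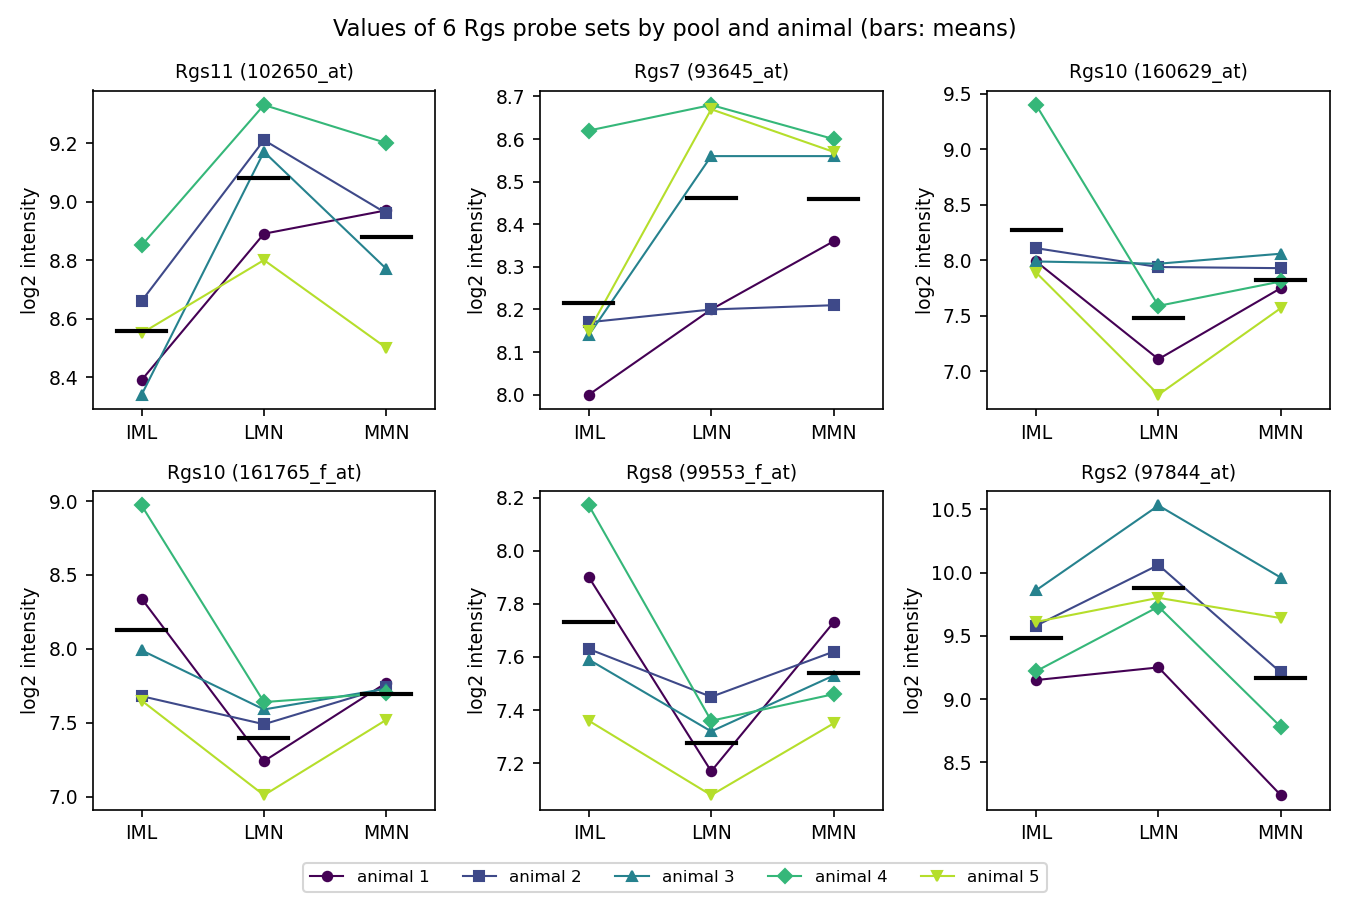
Log2 intensity (y axis) of 6 Rgs probe sets in IML, LMN and MMN, with a line for each of 5 animals and bars at the pool means. Rgs11 and Rgs7 are lower in IML in most animals, Rgs10 and Rgs8 have their highest value in IML of animal 4, and all 5 lines of Rgs2 run downward between LMN and MMN.

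In the R12 subfamily, Rgs10 was higher in IML. Rgs10 acts on Gi-class subunits and is known in the nervous system for its expression in microglia as well as in neurons. Its probe set 161765_f_at read 8.34, 7.68, 7.99, 8.97 and 7.65 in IML, 7.24, 7.49, 7.59, 7.64 and 7.01 in LMN, and 7.77, 7.74, 7.73, 7.70 and 7.52 in MMN. Every IML value lay above every LMN value, while IML and MMN overlapped. The difference between IML and somatic samples was 0.59 ± 0.14, or 1.50-fold, with all 5 animals in that direction (adjusted p 0.0396). Against LMN it was 0.74 ± 0.17, or 1.66-fold (adjusted p 0.0200), and against MMN 0.44 ± 0.17 (adjusted p 0.312).

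A second Rgs10 probe set, 160629_at, read 7.99, 8.11, 7.99, 9.40 and 7.89 in IML, 7.11, 7.94, 7.97, 7.59 and 6.79 in LMN, and 7.75, 7.93, 8.06, 7.81 and 7.57 in MMN. It followed the first with a correlation of 0.93 over the 15 samples after each animal's mean was removed, and in both the IML sample of animal 4 was highest. Its differences were 0.62 ± 0.20 between IML and somatic samples (adjusted p 0.0958) and 0.79 ± 0.23 between IML and LMN (adjusted p 0.0545). The third probe set, 103384_at, was dim at 4.52 on average and gave 0.09 ± 0.05 (adjusted p 0.365).

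The Rgs10 call was lost when any of several animals was left out, and calls over the whole array fell in the same settings. Between IML and somatic samples 686 probe sets were called with all animals. Without animals 1, 3, 4 or 5 the counts were 386, 169, 397 and 164. Without the IML sample of animal 4, the difference of 161765_f_at between IML and somatic samples was 0.41 (adjusted p 0.0686) and that of 160629_at was 0.35 (adjusted p 0.173). Leaving out animals 1, 3, 4 or 5 whole gave adjusted p-values of 0.122, 0.101, 0.0855 and 0.104 for 161765_f_at. The differences were 0.52, 0.65, 0.41 and 0.63, beside 0.59 with all animals. The call against LMN was lost, at differences of similar size, without animal 1 (0.64, adjusted p 0.0834), animal 3 (0.82, adjusted p 0.0539) or animal 5 (0.76, adjusted p 0.0732). Without the LMN sample of animal 2 the 2 differences were 0.62 (adjusted p 0.0469) and 0.81 (adjusted p 0.0295).

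Microglia and macrophage markers also differed between the pools in the direction of Rgs10. All 13 listed markers were measured, 7 of them lay below the array median and none was at 0. Between IML and somatic samples 6 of the 13 were higher (Csf1r, Tyrobp, C1qa, C1qc, Lyz2 and Ctss) and none was lower, beside 5.52% of all probe sets called, 427 higher and 259 lower. Their summed intensity was 2033 to 3553 units in IML, 1768 to 2038 in LMN and 1796 to 2610 in MMN. Within IML, however, animal 4 had the lowest microglia and macrophage sum, 2033, and the highest Rgs10 values of both bright probe sets. Meningeal and fibroblast markers were higher in IML too, 6 of 10 listed and measured, with sums of 21054 to 28381 units in IML, 7346 to 19690 in LMN and 9496 to 30994 in MMN, and in IML the lowest of these sums, 21054, was again that of animal 4. The part of either marker group in the Rgs10 difference was not tested.

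**Figure D4:**
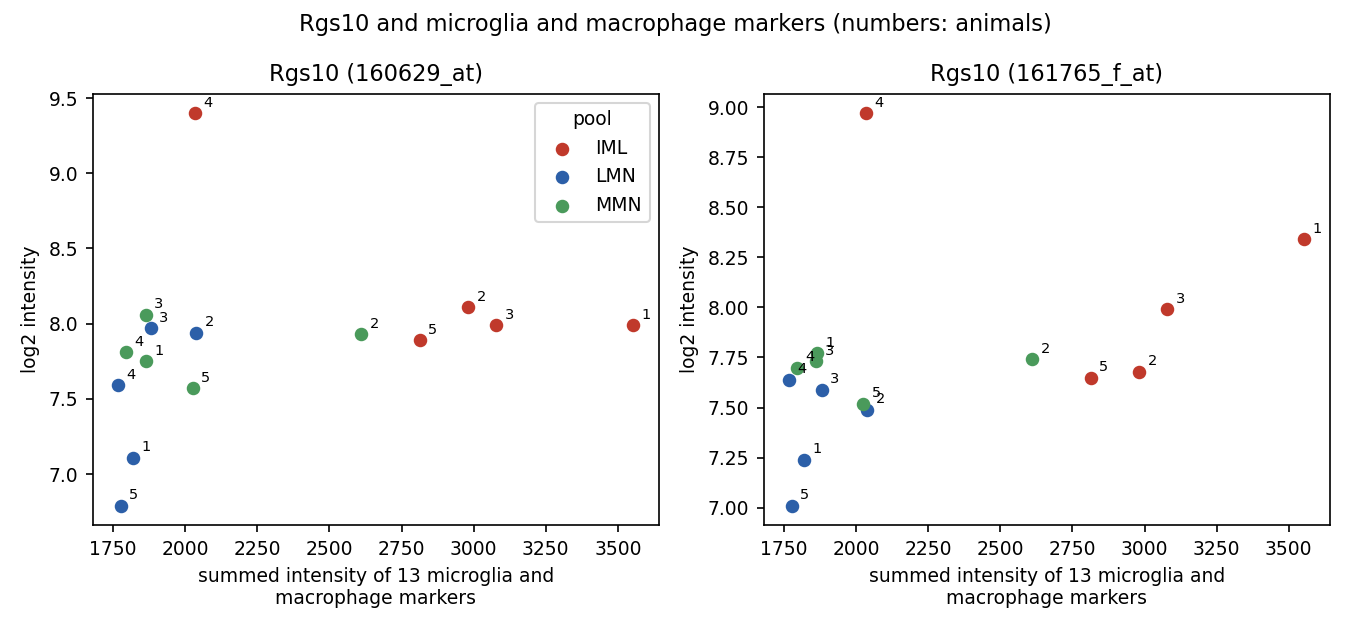
Log2 intensity of the 2 brighter Rgs10 probe sets (y axes) against the summed intensity of 13 microglia and macrophage markers (x axes), with 1 numbered point per animal in IML, LMN and MMN. The IML sample of animal 4 has the highest Rgs10 values at a marker sum of 2033, and the other IML samples lie at sums of 2813 to 3553.

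Rgs14, the other R12 gene, carries a second Gα-binding motif and is known from hippocampal area CA2. It averaged 7.86 ± 0.13 in IML, 7.76 ± 0.06 in LMN and 7.70 ± 0.05 in MMN. The difference of 0.13 ± 0.05 was positive in all 5 animals and did not pass (adjusted p 0.121).

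Among the R4 genes, Rgs8 was higher in IML than in LMN. Rgs8 is known from cerebellar Purkinje cells and speeds the gating of potassium channels driven by Gi/o. Its single probe set, 99553_f_at, read 7.90, 7.63, 7.59, 8.17 and 7.36 in IML, 7.17, 7.45, 7.32, 7.36 and 7.08 in LMN, and 7.73, 7.62, 7.53, 7.46 and 7.35 in MMN. IML was above LMN within every animal, with an overlap only at the lowest IML value, that of animal 5. The difference from LMN was 0.46 ± 0.11, or 1.37-fold (adjusted p 0.0234), that from MMN was 0.20 ± 0.11 (adjusted p 0.500) and 0.07 without animal 4 (adjusted p 0.777), and that from both somatic pools was 0.33 ± 0.09 (adjusted p 0.0648).

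LMN was below MMN in Rgs8 in all 5 animals, by -0.26 ± 0.11 (adjusted p 0.377). The call against LMN was kept without the IML sample of animal 4 (0.35, adjusted p 0.0353) and without the LMN sample of animal 2 (0.50, adjusted p 0.0331). It was lost without animal 1 (0.39, adjusted p 0.0854), animal 3 (0.50, adjusted p 0.0626) or animal 5 (0.50, adjusted p 0.0684).

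Rgs2 was the member with the widest separation between the somatic pools, although no comparison of it passed. Rgs2 is an R4 protein selective for Gq, the subunit that couples several modulatory receptors of motoneurons to phospholipase C. It read 9.15, 9.58, 9.86, 9.22 and 9.61 in IML, 9.25, 10.06, 10.53, 9.73 and 9.80 in LMN, and 8.24, 9.21, 9.96, 8.78 and 9.64 in MMN. The pools overlapped because the animals differed, with animal 3 high and animal 1 low in both somatic pools. The means were 9.48 ± 0.30 in IML, 9.87 ± 0.47 in LMN and 9.17 ± 0.68 in MMN, or 5.18, 6.88 and 4.22 times the array median.

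Within animals LMN exceeded MMN in Rgs2 by 1.01, 0.85, 0.56, 0.95 and 0.15 log2 units. The difference was 0.71 ± 0.13, or 1.63-fold, with a 95% interval of 0.41 to 1.00. Its unadjusted p was 0.000246 and its adjusted p over all probe sets was 0.101, so the call was not made. IML lay between the somatic pools, with -0.39 ± 0.13 against LMN (adjusted p 0.0990, 5 of 5 animals) and 0.32 ± 0.13 against MMN (adjusted p 0.367, 3 of 5 animals). The order of Rgs2 levels was therefore LMN, IML, MMN, with neither neighbouring step past the threshold. The paired arrays of a sample differed by 0.24 in the median and by up to 1.08, in LMN of animal 4, which is larger than the difference between pools. Each technical set alone gave a similar difference between LMN and MMN, 0.67 for set 1 and 0.74 for set 2, and without the LMN sample of animal 2 it was 0.68 (adjusted p 0.142).

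Rgs4, an R4 protein of many neurons that acts on Gi and Gq, was low on these arrays. It read 4.73, 4.59, 4.32, 4.52 and 4.60 in IML, 4.94, 4.58, 4.58, 4.49 and 4.82 in LMN, and 4.73, 4.40, 4.36, 4.67 and 4.56 in MMN. The pools overlapped at 0.176 times the array median on average, with LMN of animals 1 and 5 above every IML and MMN value. The difference between IML and somatic samples was -0.06 ± 0.06 (95% interval -0.19 to 0.07, adjusted p 0.637), and that between LMN and MMN was 0.14 ± 0.07 (adjusted p 0.464).

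Rgs5, an R4 protein best known as a marker of pericytes and vascular smooth muscle, also stayed below the array median. Its brighter probe set, 103294_at, read 6.40, 6.30, 6.29, 6.23 and 6.25 in IML, 6.42, 6.18, 6.01, 6.35 and 6.24 in LMN, and 6.45, 6.26, 6.15, 6.39 and 6.38 in MMN. The pools overlapped, and the difference between IML and somatic samples was 0.01 ± 0.05 (adjusted p 0.945), with -0.09 ± 0.06 between LMN and MMN (adjusted p 0.597). The dimmer probe set, 96180_at, gave 0.03 ± 0.07 (adjusted p 0.849). Of 12 listed pericyte and smooth muscle markers 11 were measured. None was higher and 1, Mcam, was lower in IML, beside 5.52% of all probe sets called. The marker sums were 1611 to 4121 units in IML, 1866 to 3195 in LMN and 2044 to 3913 in MMN, with Mcam the brightest marker on average. The IML range of sums spans both somatic ranges. Between LMN and MMN no marker passed, and 2 of the 11 were higher in LMN. Acta2 (-2.56 ± 0.66, adjusted p 0.182), Myh11 (-0.96 ± 0.43, adjusted p 0.419) and Tagln (-0.65 ± 0.26, adjusted p 0.370) were lower in LMN in all 5 animals. So were Pdgfrb (-0.14 ± 0.06) and Notch3 (-0.10 ± 0.08). Mcam had a higher mean in LMN (0.27 ± 0.19, adjusted p 0.618), and the remaining markers differed by -0.04 to 0.01.

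The other R4 genes and the RZ gene showed small differences. Rgs3 averaged 8.88 ± 0.18 in IML, 8.79 ± 0.13 in LMN and 8.81 ± 0.16 in MMN, a difference of 0.08 ± 0.06 (adjusted p 0.522). Rgs16, an immediate-early and circadian R4 gene, averaged 8.08 ± 0.08 in IML, 8.02 ± 0.11 in LMN and 8.02 ± 0.11 in MMN, a difference of 0.06 ± 0.05 (adjusted p 0.614). Its second probe set, 161609_at, gave the same 0.06 ± 0.06 (adjusted p 0.626). Rgs19, the RZ protein also called GAIP, averaged 7.34 ± 0.14 in IML, 7.17 ± 0.13 in LMN and 7.21 ± 0.19 in MMN by its brightest probe set, 103606_r_at. All 5 animals had a higher IML value there, by 0.15 ± 0.04, and it did not pass (adjusted p 0.0675). Its probe sets disagreed in sign, with 0.16 ± 0.10 for 103605_g_at (adjusted p 0.404) and -0.05 ± 0.05 for 103604_at (adjusted p 0.698). Without animal 1, whose MMN value was high, 103605_g_at gave 0.27 and passed (adjusted p 0.0340).

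The genome places 6 of the 13 genes on chromosome 1 in the GRCm38.p6 annotation, which are Rgs2, Rgs4, Rgs5, Rgs7, Rgs8 and Rgs16. Rgs4 and Rgs5 are neighbours among protein-coding genes, as are Rgs8 and Rgs16. Neighbouring members did not share a call, since Rgs8 differed between IML and LMN by 0.46 and passed, while Rgs16 lay at 8.08 in IML and 8.02 in LMN. Whether the difference of Rgs8 and that of Rgs16 differ from each other was not tested.

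The genes whose pattern over the 15 samples was most like that of Rgs2, Rgs4 and Rgs5 were sought among 5601 bright probe sets with a single symbol, after each animal's mean was removed. For Rgs2 they were Orc4 (r = 0.96), Ppid (r = 0.93) and Tmem30a (r = 0.93). For Rgs4 they were Ddx3x (r = 0.86), Pim2 (r = 0.85) and Acp1 (r = 0.84), and for Rgs5 they were Serpinf2 (r = 0.93), Defa35 (r = 0.87) and Aurkb (r = 0.85). These are the highest of 5601 values over samples that share animals and amplification, and they carry no test. Without removing the animal means, the Rgs4 values were 0.29, 0.55 and 0.79 in that order, while those of Rgs2 were 0.87, 0.92 and 0.92.

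The surrounding pathway showed calls in 1 direction between IML and somatic samples, with every called gene higher in IML. Over the whole array 5.52% of probe sets were called, and these too leaned that way, with 427 higher and 259 lower. Among Gα subunits, the substrates of RGS proteins, 3 of 14 measured genes were higher and none lower. They were Gnai2 (12.18 in IML, 11.28 in LMN and 11.69 in MMN, difference 0.70 ± 0.16, adjusted p 0.0298), Gnai3 (0.49 ± 0.11, adjusted p 0.0275) and Gna12 (0.38 ± 0.07, adjusted p 0.0122). Gnai2 has 3 probe sets and Gna12 has 2, of which only the brightest is given, an _f_at set for Gnai2. Gnai2 and Gnai3 encode inhibitory subunits, and Gna12 encodes a subunit of the G12/13 class. Gnao1, the main Gα subunit of neurons, differed by -0.03 ± 0.10 (adjusted p 0.925), and Gnaq by -0.09 ± 0.05 (adjusted p 0.366). The median over the 14 subunits was 0.07, beside -0.01 over all probe sets.

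Each of the 3 Gα calls was lost in some settings with samples left out. Calls over the whole array also fell there, from 686 to 386, 650, 169, 397 and 164 without animals 1 to 5. They were 529 without the LMN sample of animal 2 and 552 without the IML sample of animal 4. Without the LMN sample of animal 2, Gnai2 no longer passed (0.70, adjusted p 0.0538). Without the IML sample of animal 4, both Gnai2 (0.62, adjusted p 0.0790) and Gnai3 (0.42, adjusted p 0.0743) no longer passed and Gna12 still did. Gna12 was lost without animal 1 (0.34, adjusted p 0.0530) or animal 5 (0.36, adjusted p 0.0754). Gnai2 was lost without animal 3, 4 or 5 (0.69, 0.62 and 0.78, adjusted p 0.126, 0.0900 and 0.0699). Gnai3 was lost without animal 2, 3, 4 or 5 (0.52, 0.41, 0.42 and 0.46, adjusted p 0.0566, 0.139, 0.104 and 0.116). Microglia and fibroblast markers were higher in IML as well, and their part in these differences was not tested.

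Elsewhere in the pathway the calls were single genes. Grk6, a receptor kinase with an RGS homology domain, was higher in IML (8.51 in IML, 8.12 in LMN and 8.27 in MMN, difference 0.32 ± 0.05, adjusted p 0.00821), the 1 call among 7 other measured genes with such a domain. Adcy7, a cyclase that makes cyclic AMP, was higher by 0.81 ± 0.08 (8.10 in IML, 7.31 in LMN and 7.27 in MMN, adjusted p 0.000901), the 1 call among 15 effectors, and it alone in these lists also passed against MMN (adjusted p 0.0059). Grk6 kept its call with each animal left out, as did Adcy7. Among 11 β and γ subunits 1 was higher, Gng10 (0.58 ± 0.12, adjusted p 0.0198). Among 37 receptors coupled to Gi/o or Gq, 2 were higher, a share like that of the whole array, the neuropeptide Y receptor Npy2r (0.84 ± 0.16, adjusted p 0.0145) and the thrombin receptor F2r (0.93 ± 0.16, adjusted p 0.00966). Npy2r has 2 probe sets and F2r has 3, of which only the brightest is given, an _f_at set for Npy2r.

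Some of these single calls changed when a sample was left out. Gng10 did not pass without the IML sample of animal 4 (0.53, adjusted p 0.0559), nor without animal 3 (0.59, adjusted p 0.0847) or animal 4 (0.53, adjusted p 0.0795). Npy2r did not pass without animal 1 (0.77, adjusted p 0.0584) or animal 3 (0.79, adjusted p 0.0879), and F2r did not without animal 3 (0.95, adjusted p 0.0539) or animal 5 (0.86, adjusted p 0.0679). None of 7 other G protein regulators passed. No gene of these lists passed between LMN and MMN.

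**Figure D5:**
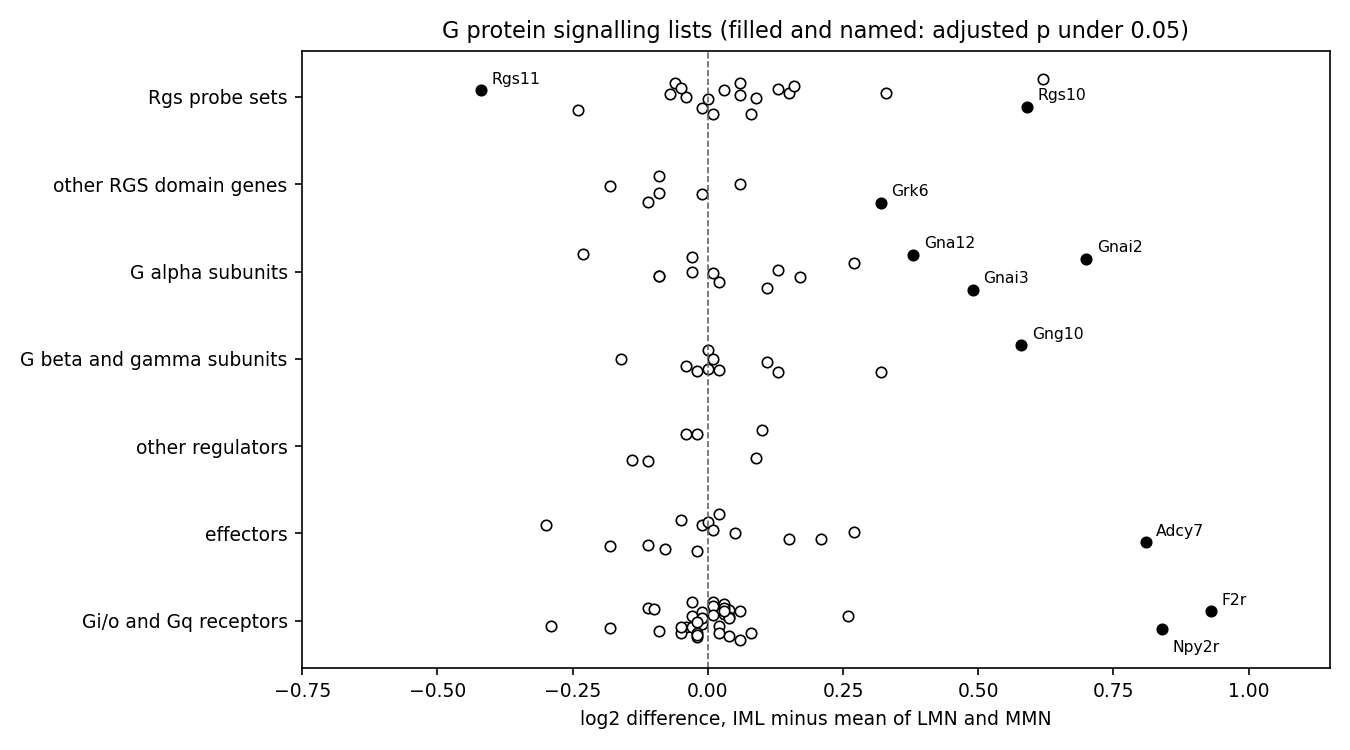
Log2 difference between IML and the mean of LMN and MMN (x axis) for the 20 Rgs probe sets and for the brightest probe set of each gene in 6 G protein signalling lists. Filled and named points have an adjusted p under 0.05, and apart from Rgs11 at -0.42 all of them lie to the right of 0.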

How the data were processed

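The authors deposited intensity values on a linear scale for each array. Per the labels, signals were normalized with a tool named R-pack and inverse logs were taken, with method, version and genome build not given in the sources used here. Of 12488 probe sets, 66 controls were left out. Symbols were taken through gene identifiers from a GRCm38.p6 table, with no coordinates printed. Probe sets ending in _f_at, _g_at or _r_at may detect related transcripts.

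No offset was added before log2 was taken, and both arrays of a sample were averaged. limma 3.58.1 in R 4.3.3 was fitted with pool and animal as fixed terms over 15 samples, then eBayes, with two-sided tests and Benjamini-Hochberg adjustment over 12422 probe sets. The model was tested on simulated data. Differences carry standard errors and levels carry SDs over 5 animals, and the number of animals limits the precision. The labels state that each animal gave every pool, and samples of the same animal deviated together in all 15 pairs (lowest correlation 0.288).

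All members were named, with the 3 genes of most similar pattern for Rgs2, Rgs4 and Rgs5 and up to 6 called genes per pathway list, each by its brightest probe set. Members and lists were chosen with earlier results of these data known. Alternatives covered the block, technical sets, scaling, filters, variance model and samples left out.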

Additional observations from a re-analysis of the deposited data

Results flagged for a closer look

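In 6 of 60 combinations of probe set and pool, 1 sample lay apart from the other 4 by more than 95% of chance groups would show. Chance alone gives about 1 in 20 such cases. The screen looked at each pool alone and did not use the pairing by animal. Rgs10 by 160629_at read 9.40 in IML of animal 4, with the next IML value at 8.11. Rgs7 read 8.62 in the same sample, with the next at 8.17, but animal 4 was also highest for Rgs7 in LMN (8.68) and MMN (8.60). Rgs19 read high in MMN of animal 1 by 2 of its probe sets, at 7.53 for 103606_r_at (next 7.18) and 6.59 for 103605_g_at (next 5.90). By 103606_r_at animal 1 was also highest in IML (7.56) and LMN (7.35). Rgs5 by the dim 96180_at read 5.36 in LMN of animal 2 (next 5.00), and animal 2 was also its highest in IML (5.26) and MMN (5.27). Rgs9 read 4.95 in LMN of animal 1 (next 4.76), and animal 1 was also its highest in IML (4.90) and MMN (4.76).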

How the results depend on the processing

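The counts of called Rgs probe sets, 2 between IML and somatic samples and 3 between IML and LMN, changed with several choices. Over all probe sets the main counts of these 2 comparisons were 686 and 1116. With no replicate block the Rgs counts were 0 and 0, beside 46 and 135 of all probe sets. With ordinary variance they were 0 and 1, beside 185 and 512. With technical set 1 alone the first was 1, Rgs7, beside 304 of all probe sets. Rgs11 (adjusted p 0.0627) and Rgs10 by 161765_f_at (adjusted p 0.0603) were lost in that setting. With a floor of 32 the first was 1, Rgs11, beside 282. With quantile normalization the second was 5, beside 1236, and with only the 2 pools compared it was 1, beside 705. Leaving out 1 animal gave 0 to 2 and 1 to 3, beside 164 to 650 and 371 to 935 of all probe sets. Leaving out the IML sample of animal 4, chosen after seeing the data, gave 2 and 4, beside 552 and 1008. The first 2 in that setting were Rgs11 and Rgs7, without Rgs10. Between IML and MMN, and between LMN and MMN, the limma count was 0 under every alternative run, beside 0 to 67 of all probe sets. For Rgs11 by 102650_at, 13 of 17 alternatives kept the call between IML and somatic samples (-0.50 to -0.37) and 17 of 18 kept that between IML and LMN. For Rgs10 by 161765_f_at these were 8 of 17 and 11 of 18, and for Rgs8 between IML and LMN 10 of 18. The dim Rgs11 probe set 161309_r_at differed by 0 between LMN and MMN with the floor of 32, under which its values lie, beside 0.23 without it. Over all differences, 70 of 1396 alternative values had another sign, of which 1 belonged to a difference with an unadjusted p under 0.05, that of 161309_r_at. Over all 12422 probe sets, calls between IML and somatic samples were 686, and 46 with no replicate block.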
